A study of Homo sapiens with 8 samples.

Results

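The proteins of the mitochondrial ribosome were followed by their transcripts in A375, an established human melanoma cell line known to carry an activating BRAF mutation. Members were all genes named MRPL or MRPS followed only by a number, which gave 72 of the 19775 genes that could be named on the array, 48 with an MRPL and 24 with an MRPS symbol. RNA was measured on 8 Affymetrix expression arrays, and each condition has 1 array. The transfected siRNA targeted no gene (siCont), BRAF (siBRAF) or ATF4 (siATF4), and the media held 10% serum. For 18 h, siCont and siBRAF cells were kept in normal or in glutamine-free medium, and siATF4 cells in normal medium. For 4 h, siCont cells were kept in the solvent DMSO or in 10 uM vemurafenib, a BRAF inhibitor, and siATF4 cells in vemurafenib. All groups are the same line and all were transfected, so none shows cells without siRNA.

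The mitochondrial ribosome, or mitoribosome, translates the few proteins encoded by mitochondrial DNA, all of them core subunits of the respiratory chain and of ATP synthase. Its RNAs come from mitochondrial DNA, while its proteins are encoded in the nucleus, made in the cytosol and imported, so that assembly needs both genomes to be expressed together. Part of its proteins descend from bacterial ribosomal proteins, and others were gained in mitochondria and sit mostly on the outer surface. The large subunit joins amino acids and releases the chain through a tunnel facing the inner membrane, and the small subunit binds and decodes the messenger RNA. Transcription factors tied to these genes include NRF1, the GABP proteins of the ETS family, YY1 and MYC.

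By known structure, 49 of the 72 members belong to the large and 23 to the small subunit, because the protein of MRPS30 sits in the large subunit despite its symbol. A counterpart in bacteria is known for 43 members, and 29 are specific to mitochondria. Of 75 symbols listed for the family, MRPL53, MRPS24 and MRPS36 were not analysed here, since they have no probe set annotated to that symbol alone. MRPS18A, MRPS18B and MRPS18C carry a letter and were kept apart, among the mitoribosomal proteins with other symbols. The members have 133 probe sets, with 34 members read by more than 1, and each gene is represented by the probe set that was brightest on average.

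The values are linear intensities in 2 sets of arrays that differ in scale. Over all probe sets the median was 14.76 to 15.5 in the 18 h set of 5 arrays and 36.38 to 36.85 in the 4 h set of 3, so differences were taken only within a set. All 72 members lay above the median of all probe sets on each of the 8 arrays. The members' median intensity was 603 in siCont, 573 in siCont without glutamine, 486 in siBRAF, 499.9 in siBRAF without glutamine and 618 in siATF4. In the other set it was 1020 in DMSO, 1020 in vemurafenib and 1119 in siATF4 with vemurafenib. The siBRAF arrays were thus the lowest of their set. In bulk RNA, fewer cells with a transcript and less of it per cell cannot be told apart.

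The ATF4 transcript had an intensity of 1814 in siCont and 534 in siATF4 cells in normal medium, and of 4548 and 757 in vemurafenib, so it was lower on each siATF4 array. BRAF has no probe set of its own symbol in the annotation, and the siBRAF label was not checked on its target. Of the melanocyte markers, SOX10 and MITF lay above the array median on all 8 arrays, and TYR lay only slightly above it on all 8. MLANA lay below it on all 8 and PMEL on 5. The epithelial marker EPCAM and the leukocyte marker PTPRC lay below it on all 8 arrays, while the epithelial keratin KRT18 lay above it on all 8. The gap between 3' and 5' actin probes, which widens as RNA degrades, was 0.28 (log2) in siCont without glutamine and 0.16 to 0.20 on the other 4 arrays of that set. The gap of the GAPDH probes was 0.13 on that array and 0.10 to 0.14 on the other 4. In the 4 h set the actin gap was -0.18 in DMSO, -0.07 in vemurafenib and -0.002 in siATF4 with vemurafenib. The part of these gaps in the results of either set was not tested.

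Each difference below is that of log2(intensity + 1) between 2 single arrays, which understates the change of low genes. With 1 array per condition there is no replicate error, no difference was tested, and each describes a pair of arrays. Members are therefore counted, at 2-fold and at 1.5-fold, beside the share of all genes tested that passed the same line. A gene counted as tested if at least 1 of its 2 intensities was no lower than its array's median.

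The first comparison set siBRAF against siCont in normal medium, and it asks how siRNA against the driving kinase bears on these genes. Most members were lower with siBRAF by a small amount. The median difference was -0.44, and 63 of 72 members were below 0, while 50.5% of the 13350 genes tested were below 0 with a median of -0.01. Large differences were few: 2 of 72 members were at least 2-fold lower and 0 higher, against 7.60% and 7.15% of all genes. At 1.5-fold, 19 members were lower and 0 higher, against 16% and 15.5% of all genes. The members' differences had an SD of 0.31 across genes, narrower than the 0.80 of all genes tested. The members thus lay slightly lower in large number, with a smaller share at 2-fold than over all genes and a larger one at 1.5-fold downward. The epithelial keratin KRT18, which is also expressed by this line, read 2428 in siCont and 577 in siBRAF. The melanocyte marker MITF read 254 and 567 on these arrays, and the part of either gene in the result was not tested.

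MRPS30, a large subunit protein also named PDCD9, had the lowest difference, -1.27. It read 960.4 in siCont and 397 in siBRAF, 2.42-fold lower, with 816 and 419 in the same cells without glutamine and 875 in siATF4. Both siBRAF arrays were therefore below each of the other 3 arrays of the set. MRPL32, whose protein must be trimmed by the mitochondrial m-AAA protease before it is built into the large subunit, read 836 in siCont, 369 in siBRAF, 598 in siCont without glutamine, 406 in siBRAF without glutamine and 663 in siATF4. Its difference with siBRAF was -1.18, or 2.26-fold, and again both siBRAF arrays were the lowest.

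Next came MRPL39 (-0.92), a protein specific to mitochondria, and MRPL17 (-0.87) and MRPL30 (-0.81), which have bacterial counterparts. MRPL39 read 676 in siCont and 358 in siBRAF, and MRPL30 read 377 and 215. At the other end were MRPL28 at 0.34, MRPS33 at 0.29, MRPL33 at 0.21, MRPL41 at 0.16 and MRPS21 at 0.11. These 5 members were the highest of the 72, and none reached 1.5-fold.

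The other probe sets of MRPS30 read -0.32 and -0.20 in this comparison, so the size of its difference rests on the probe set used. Among all other member probe sets above the array median, 39 of 46 had the same sign as the probe set used for their gene, and 0 differed from it in sign with both at least 1.5-fold apart.

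**Figure D1:**
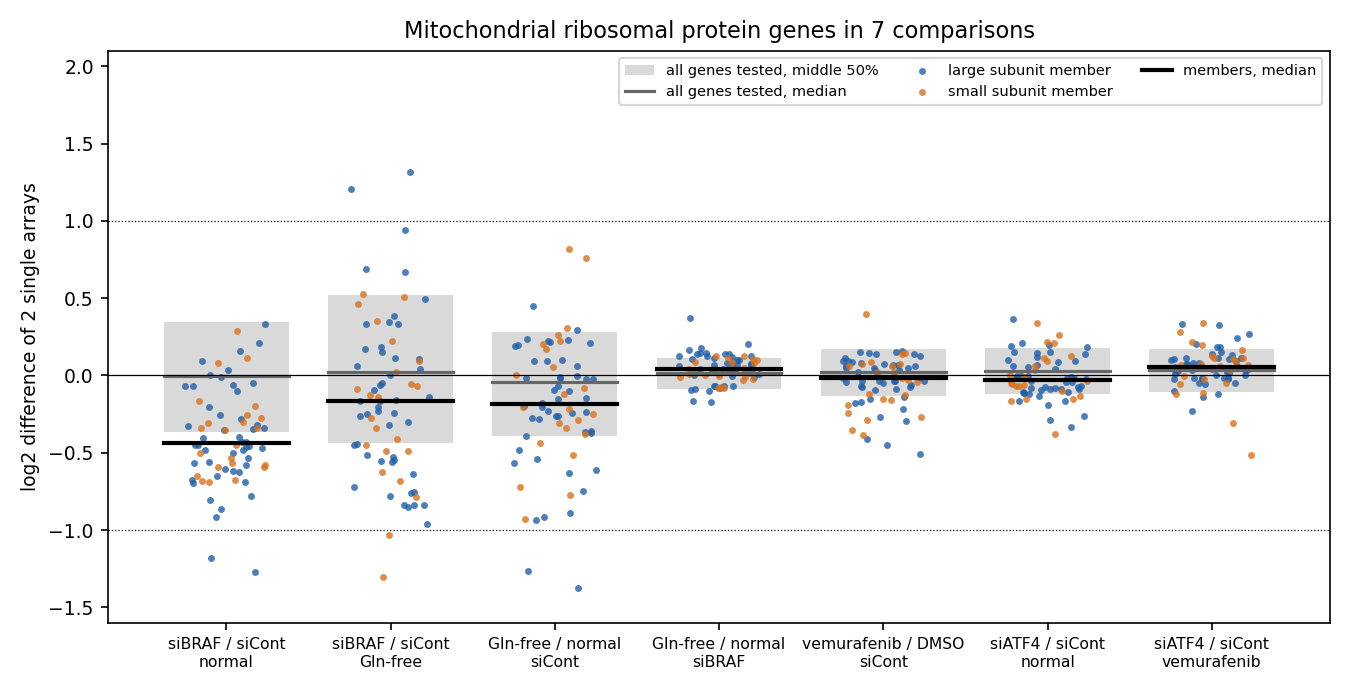
Log2 difference between 2 single arrays (y axis) for each of the 72 members in 7 comparisons (x axis), with large subunit members in blue and small subunit members in orange; black bars mark the members' medians, grey boxes and bars the middle 50% and the median of all genes tested, and dotted lines 2-fold. The members' median lies at -0.44 for siBRAF in normal medium, and no member passes 2-fold in the 4 comparisons on the right.

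The promoters of the members that stood lowest or highest over both siBRAF pairs are shown as the sequence context of these differences. They span 250 bases before to 50 after the transcription start, from RefSeq on GRCh38.p14, written 5' to 3' on the gene's strand. Capitals mark matches on either strand to any of the 5 motifs searched, described further on. MRPS30 lies at chr5:44808697-44808996 (plus strand), MRPL32 at chr7:42932126-42932425 (plus), MRPS31 at chr13:40771141-40771440 (minus), MRPL41 at chr9:137551629-137551928 (plus) and MRPL44 at chr2:223957213-223957512 (plus).
MRPS30: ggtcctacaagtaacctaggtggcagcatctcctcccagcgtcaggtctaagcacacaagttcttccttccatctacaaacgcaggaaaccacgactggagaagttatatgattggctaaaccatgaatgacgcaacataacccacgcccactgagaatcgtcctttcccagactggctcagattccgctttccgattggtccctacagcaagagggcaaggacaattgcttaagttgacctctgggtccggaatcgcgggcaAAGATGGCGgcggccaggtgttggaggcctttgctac
MRPL32: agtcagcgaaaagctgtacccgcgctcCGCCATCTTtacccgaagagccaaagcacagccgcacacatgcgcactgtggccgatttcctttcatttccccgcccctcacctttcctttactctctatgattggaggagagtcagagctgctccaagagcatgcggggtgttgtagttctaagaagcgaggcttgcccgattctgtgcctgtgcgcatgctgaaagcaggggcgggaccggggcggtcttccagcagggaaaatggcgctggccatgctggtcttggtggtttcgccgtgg
MRPS31: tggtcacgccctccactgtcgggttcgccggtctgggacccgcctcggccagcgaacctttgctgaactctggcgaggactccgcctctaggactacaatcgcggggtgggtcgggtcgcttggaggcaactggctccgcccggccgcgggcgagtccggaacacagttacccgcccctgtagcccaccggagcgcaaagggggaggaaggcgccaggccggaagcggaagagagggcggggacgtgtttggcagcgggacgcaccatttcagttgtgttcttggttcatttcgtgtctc
MRPL41: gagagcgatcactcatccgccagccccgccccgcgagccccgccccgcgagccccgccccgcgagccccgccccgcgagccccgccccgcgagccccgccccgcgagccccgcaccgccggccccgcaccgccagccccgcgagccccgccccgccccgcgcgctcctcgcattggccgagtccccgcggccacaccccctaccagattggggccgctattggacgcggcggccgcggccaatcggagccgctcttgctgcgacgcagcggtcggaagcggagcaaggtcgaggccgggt
MRPL44: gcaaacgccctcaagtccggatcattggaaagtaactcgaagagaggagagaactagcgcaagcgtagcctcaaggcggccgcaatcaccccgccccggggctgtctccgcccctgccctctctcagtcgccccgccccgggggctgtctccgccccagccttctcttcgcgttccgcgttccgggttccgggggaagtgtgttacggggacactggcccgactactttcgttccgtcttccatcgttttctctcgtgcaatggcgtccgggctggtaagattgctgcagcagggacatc

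MRPS30 carries the YY1 motif with its first base 13 bases after the start, and MRPL32 carries it on the other strand at -223. MRPS31, MRPL41 and MRPL44 hold none of the 5 motifs in this window. GC content was 52.7% in the MRPS30 window, 58.3% in that of MRPL32, 66% in that of MRPS31, 63% in that of MRPL44 and 80.7% in that of MRPL41. The median was 60.4% over the members' promoters and 58.3% over all genes.

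The same siRNAs were also compared in glutamine-free medium, on 2 other arrays. Here the members spread more widely around a smaller shift: the median was -0.17, and 47 of 72 were below 0, against 0.02 and 48.7% for the 13499 genes tested. At least 2-fold lower were 2 members, MRPS31 and MRPS10, against 10.8% of all genes, and at least 2-fold higher were 2, MRPL44 and MRPL41, against 12.8%. At 1.5-fold, 15 were lower and 5 higher, where all genes gave 20.0% and 22.8%. The members' shares were below those of all genes for lower and for higher values alike, apart from 15 of 72 lower at 1.5-fold, which is near the background. Without probe sets marked as able to share sequence, 38 members had a median of -0.3013.

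MRPS31, a mitochondria-specific protein of the small subunit head, had the lowest difference at -1.31. It read 646 in siCont and 261 in siBRAF, 2.47-fold lower, with 381 and 253 in normal medium. MRPS10, the small subunit counterpart of bacterial S10, was at -1.03, with 658 in siCont and 322 in siBRAF, and 374 and 294 in normal medium. In both genes the siCont array without glutamine was the highest of its set, while the siBRAF arrays hardly differed between the media. MRPS30 (-0.96), MRPL21 (-0.85) and MRPL30 (-0.84) followed.

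MRPL44, a large subunit protein with an RNase III-like fold, stood highest at 1.31. It read 98.5 in siCont and 246 in siBRAF, 2.49-fold higher, with 257 and 240.1 in normal medium and 244 in siATF4. MRPL41, specific to the mitochondrial large subunit, was at 1.20, reading 614 and 1415, with 1159 and 1294 in normal medium. For both, the siCont glutamine-free array was the lowest of the set, and the other 4 arrays lay closer together. MRPL23, at the tunnel exit, was at 0.94, MRPL34 at 0.69 and MRPL28 at 0.67.

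MRPS10 is read by 3 probe sets, which agreed closely here, at -1.03, -1.02 and -1.07. The second probe set of MRPL44 gave 1.06, and the probe sets of MRPS31 gave -1.31, -1.32 and -0.53. The last of these was dim, with 16.2 and 10.9 near the array median. For MRPL41, 1 other probe set gave 1.22, and the remaining 3 gave 0.24 to 0.37. MRPS30 was the only member with probe sets at least 1.5-fold apart in opposite directions, at -0.96 and 0.85, so its direction in glutamine-free medium depends on the probe set.

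The siBRAF pairs of the media share no array. Of the 72 members, 47 (65.3%) were below 0 in both, 9 (12.5%) above 0 in both and 16 of opposite sign, while 35.3% of 13134 genes were below 0 in both and 36.9% above. Across the 72 genes, which are not independent replicates, the differences of both pairs correlated at r = 0.59, against 0.72 over all genes tested in both. At least 1.5-fold lower in both were 8 members: MRPL1, MRPL3, MRPL30, MRPL39, MRPL47, MRPS6, MRPS30 and MRPS31. Of all genes 9.91% were, a share near that of the members, and 0 members were at least 1.5-fold higher in both. The siBRAF difference was more positive without glutamine for 51 of the 72 members and for 54.9% of all genes.

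By the mean of both pairs, MRPS30 stood lowest at -1.12, followed by MRPS31 (-0.95), MRPL32 (-0.87), MRPL30 (-0.82) and MRPL39 (-0.78). MRPL41 (0.68), MRPL44 (0.61) and MRPL28 (0.50) stood highest. MRPL28 is the counterpart of bacterial L28, and of these 3 its pairs, at 0.34 and 0.67, were the closest to each other.

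Glutamine withdrawal was then read within each siRNA. In siCont cells the members were divided: the median difference of glutamine-free from normal medium was -0.19, and 50 of 72 members were below 0, against -0.05 and 53.8% for the 13359 genes tested. At least 2-fold lower were 2 members, MRPL44 (-1.38) and MRPL23 (-1.27), against 7.22% of all genes, and 0 were higher, against 5.76%. At 1.5-fold, 11 were lower and 2 higher, against 16.7% and 13.3%. The members' shares were again below those of all genes, apart from 11 of 72 lower at 1.5-fold, which is near the background. Without the probe sets marked as able to share sequence (_s_at and _x_at), 38 members remained, with a median of -0.0149.

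MRPL44 read 257 with glutamine and 98.5 without it, 2.60-fold lower. MRPL23 read 591 and 245, 2.40-fold lower, with 438 and 471 in siBRAF and 658 in siATF4. Its siCont glutamine-free array was the lowest of the 5, as it was for MRPL44. The other probe set of MRPL23 was dim and gave 0.69, the opposite sign, while that of MRPL44 gave -0.78.

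MRPL38, part of the central protuberance of the large subunit, and MRPS34, a mitochondria-specific small subunit protein, were both at -0.93, followed by MRPL41 at -0.92. MRPS34 read 593 and 311 in siCont, and MRPL38 read 149 and 77.7. At the other end, MRPS10 (0.82) and MRPS31 (0.76) were the only members at least 1.5-fold higher by the probe set used. The second probe set of MRPS16 read 0.75 here, against 0.26 for the one used. MRPL35 was at 0.45, MRPS22 at 0.31 and MRPL54 at 0.30. The 3 probe sets of MRPS10 read 0.82, 0.76 and 0.77, and those of MRPS31 read 0.76, 0.54 and 0.56, so these higher values did not rest on 1 probe set. The last probe set of MRPS31 was dim, with 10.6 and 16.2 near the array median.

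**Figure D2:**
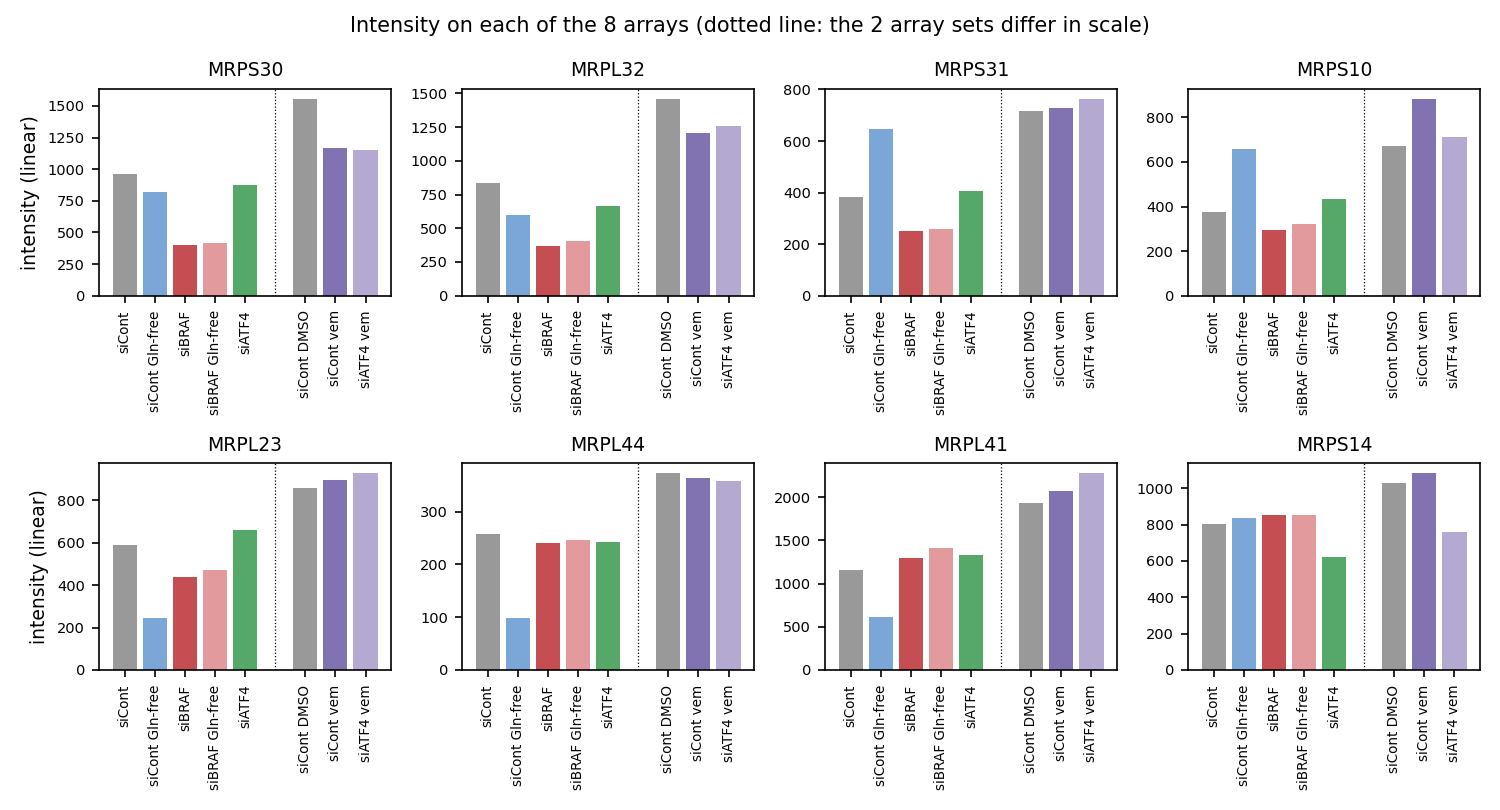
Linear intensity (y axis) of 8 members on each of the 8 arrays (bars, 1 array each, no error), with a dotted line between the 2 array sets that differ in scale. The siCont glutamine-free bar is the highest of its set for MRPS31 (646) and MRPS10 (658) and the lowest for MRPL23 (245), MRPL44 (98.5) and MRPL41 (614), while the siBRAF bars are alike in both media.

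With siBRAF, the members were nearly level between the media. The median was 0.04 and 20 of 72 members were below 0, against 0.01 and 45.7% for the 13139 genes tested. With quantile normalization within the array set, 36 of 72 members and 50.9% of all genes were below 0, so the split of signs depended on the scaling. None of the 72 was 2-fold apart in either direction, against 0.0761% lower and 0.0457% higher of all genes. Of the members, 71 lay within 0.25 either way, as did 85.2% of all genes. In siCont cells 37 members and 39.5% of all genes did, so all genes lay closer together in the siBRAF pair.

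The exception was MRPL50, a mitochondria-specific large subunit protein, at 0.37, with 306 in the presence and 396 in the absence of glutamine. MRPL52 (0.21), MRPL19 (0.18), MRPL30 (0.16) and MRPL57 (0.14) came after it. The lowest were MRPL2 and MRPL49 (both -0.17), MRPL4 (-0.10), MRPL10 (-0.09) and MRPL21 (-0.09). The SD across members was 0.09, against 0.41 in siCont cells, and over all genes tested it was 0.19 against 0.72.

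The difference between these responses, siBRAF minus siCont, rests on 4 arrays. For each gene it is the same value as the siBRAF difference without glutamine minus that in normal medium, counted above. Its median over the members was 0.22 with 21 of 72 below 0, against 0.05 and 45.7% for the 13715 genes tested. At least 2-fold higher were 5 members, MRPL44 (1.41), MRPL23 (1.37), MRPL41 (1.04), MRPS34 (1.03) and MRPL55 (1.03), against 7.55% of all genes, and 0 were at least 2-fold lower, against 5.69%. The lowest were MRPS31 (-0.71), MRPS10 (-0.69), MRPL35 (-0.42), MRPS16 (-0.34) and MRPL54 (-0.29). MRPL55, a mitochondria-specific large subunit protein, read 204 and 109 in siCont and 141 and 155 in siBRAF. In each of these 10 members, picked by this difference, the siCont pair differed by more than the siBRAF pair. Over all genes the SD was likewise larger in siCont cells, 0.72 against 0.19.

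Vemurafenib inhibits the mutant BRAF kinase, and its 4 h of exposure were compared with DMSO in siCont cells. The members hardly differed. The median was -0.02, and 39 of 72 were below 0, against 0.02 and 45.1% for the 13160 genes tested. With quantile normalization 36 of 72 members and 42.9% of all genes were below 0. None of the 72 was 2-fold lower or higher, against 1.92% and 0.859% of all genes.

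MRPL36 was the lowest, at -0.51. Its protein is the counterpart of bacterial L36, and it read 1975 in DMSO, 1388 in vemurafenib and 1495 in siATF4 with vemurafenib. MRPL17 (-0.45), MRPS30 (-0.41), MRPS2 (-0.38) and MRPS12 (-0.35), the last being the counterpart of S12 at the decoding site, came next. MRPS30 read 1555 in DMSO and 1167 in vemurafenib, and MRPL17 979 and 716. Both were also among the 5 lowest with siBRAF in normal medium.

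MRPS10 was the highest at 0.40, reading 670.1 and 883. It was followed by MRPL40 (0.16), MRPL10 (0.15), MRPL13 (0.15) and MRPL30 (0.14). MRPL30 had been at -0.81 with siBRAF in normal medium, and thus did not share that direction.

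The vemurafenib pair shares no array with the siBRAF pairs. Below 0 both with siBRAF in normal medium and with vemurafenib were 37 of the 72 members (51.4%), against 29.6% of all genes, with 7 (9.72%) above 0 in both, against 32.8%, and 28 of opposite sign. Across the members r was 0.45, and 0.39 over all genes. With siBRAF in glutamine-free medium in place of normal medium, r was 0.11 over the members and 0.34 over all genes. Doses and times differ between the siRNA and the drug, so the values stand side by side only.

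ATF4 is the transcription factor of the amino acid stress response, and siATF4 was compared with siCont in normal medium and under vemurafenib. In normal medium the members' median was -0.03 and 45 of 72 were below 0, against 0.03 and 44.6% for the 13172 genes tested. None was 2-fold lower or higher, against 0.387% and 0.471% of all genes. In vemurafenib the median was 0.06 and 22 of 72 were below 0, against 0.03 and 43.5% of 13173 genes, and again none was 2-fold apart, against 0.729% lower and 0.205% higher. The members' median thus had a different sign in each setting, at sizes under 0.1.

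MRPS14, the counterpart of bacterial S14 in the small subunit head, was the lowest member in both settings. It was at -0.38 in normal medium, with 806 in siCont and 621 in siATF4, 1.30-fold lower. In vemurafenib it was at -0.52, with 1084 and 757, 1.43-fold lower. Each siATF4 array was the lowest of its set for this gene. A second probe set of MRPS14 gave 0.13 and -0.28, so that the direction in normal medium differed between probe sets.

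MRPL43, specific to the mitochondrial large subunit, was at 0.37 in normal medium, where it read 471 and 607, and at 0.33 in vemurafenib, where it read 836 and 1049.7. MRPS21 was at 0.26 and 0.28. Both were among the 5 highest in each setting. MRPS28 (0.34), MRPS10 (0.21) and MRPL34 (0.21) completed the highest in normal medium, as did MRPS33 (0.34), MRPL40 (0.33) and MRPL19 (0.27) in vemurafenib.

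On the low side, MRPL32 (-0.33), MRPL12 (-0.29), MRPL30 (-0.26) and MRPL14 (-0.19) followed MRPS14 in normal medium. MRPL12 belongs to the stalk that recruits translation factors. In vemurafenib MRPS10 (-0.31), MRPL9 (-0.23), MRPL14 (-0.14) and MRPS23 (-0.12) followed. MRPS10 had opposite signs in the settings, at 0.21 and -0.31. These pairs share no array, and r across the members was 0.45, against 0.42 over all genes, with 19 members (26.4%) below 0 in both, 24 (33.3%) above and 29 of opposite sign. Of all genes 26.4% were below 0 in both and 39.2% above.

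The lower values with siBRAF in normal medium were spread over both subunits. In the large subunit 43 of 49 members were below 0, with a median of -0.45, and in the small subunit 20 of 23, with a median of -0.35. Large subunit members with a bacterial counterpart had a median of -0.46 and those specific to mitochondria -0.34. In the small subunit the order was the other way, at -0.35 and -0.57. No class stood at or above 0.

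By site in the structure, the 4 proteins of the stalks (MRPL1, MRPL10, MRPL11 and MRPL12) had a median of -0.53 and the 5 of the central protuberance one of -0.46, and all 9 were below 0. The 6 proteins at the tunnel exit were at -0.30, the 4 around the peptidyl transferase centre at -0.28 and the 7 of the small subunit head at -0.34. In siCont cells without glutamine the tunnel exit was at -0.13, although it holds MRPL44 and MRPL23, the members with the lowest differences there. The 6 proteins of that site thus differed widely among themselves in that pair.

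Other genes of the same pathway were set beside the members, from lists of their partners. Of all genes tested, 50.5% were below 0 with siBRAF in normal medium and 48.7% without glutamine. The 7 mitoribosomal proteins with other symbols, such as DAP3 of the small subunit, had a median of -0.23 with siBRAF in normal medium, with 6 of 7 below 0, and -0.31 without glutamine. Among 26 assembly factors the median was -0.35 and 22 were below 0. At least 2-fold lower were 3 of the 26, against 7.60% of all genes. They were TFB1M (-1.89), which methylates the small subunit RNA, the GTPase MTG1 (-1.15) and MTERF3 (-1.02). Without glutamine the assembly factors' median was -0.15 with 15 of 26 below 0. TFB1M (-1.66) and FASTKD2 (-1.27) were at least 2-fold lower there, against 10.8% of all genes.

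Genes of mitochondrial DNA transcription and RNA processing had a median of -0.51 with siBRAF in normal medium, with 11 of 15 below 0. None was 2-fold apart, against 7.60% lower and 7.15% higher of all genes. Without glutamine the median was -0.19 with 10 of 15 below 0. At least 2-fold lower were 3, against 10.8% of all genes: TFAM (-1.41), which packages mitochondrial DNA, TFB2M (-1.32) and the helicase TWNK (-1.51). The 15 translation factors were at -0.20 and -0.40. Without glutamine MTIF2 (-1.16) and MRRF (-1.09) were at least 2-fold lower, against 10.8% of all genes, and MTIF3 (1.66) higher, against 12.8%. Mitochondrial chaperones and proteases had the lowest medians, -0.67 and -0.59, with 10 and 11 of 13 below 0. In normal medium HSPE1 (-1.12), TRAP1 (-1.05) and GRPEL1 (-1.04) of the 13 were at least 2-fold lower, against 7.60% of all genes. Without glutamine 3 were at least 2-fold lower, DNAJA3 (-1.46), HSPA9 (-1.44) and LONP1 (-1.31), against 10.8% of all genes. HSPE1 was at 0.50 there, and the protease HTRA2 was higher in both media, at 0.94 and 1.32.

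Nuclear partners of the mitoribosome's products and the ribosome of the cytosol were set beside these. The 67 nuclear subunits of the respiratory chain and ATP synthase had a median of 0.01 with siBRAF in normal medium. Of them, 32 of 67 were below 0, against 50.5% of all genes, and their median without glutamine was 0.28. The 52 cytosolic ribosomal proteins were at -0.01 and, for 51 of them, -0.05, and none was 2-fold apart. Of all genes, 7.60% and 10.8% were at least 2-fold lower in these pairs, and 7.15% and 12.8% higher. In siCont cells without glutamine the respiratory subunits were at -0.19, with 58 of 67 below 0, against 53.8% of all genes. The members had the same median, while cytosolic ribosomal proteins were at 0.03. With vemurafenib the respiratory subunits were at 0.11, with 3 of 67 below 0, against 45.1% of all genes.

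Among 9 regulators of mitochondrial genes the median was -0.62 with siBRAF in normal medium. MYC was at -1.52 there and at -4.89 without glutamine, at 3.31 in siCont cells without glutamine and at -3.14 with vemurafenib. GABPB1, a subunit of the GABP factor, was at -1.16 and -1.98 with siBRAF, and PPRC1, a coactivator, at -0.71 and -1.38. NRF1 was at -0.62 and -0.50, and YY1 at -0.39 and -0.38. The other 4 regulators had opposite signs in the siBRAF pairs or were above 0: GABPA, the DNA-binding GABP subunit, was at -0.27 and 0.78, PPARGC1B at -0.84 and 0.50, PPARGC1A at 0.09 and 0.77 and ESRRA at 0.23 and -0.20. PPARGC1A and PPARGC1B were dim in siCont cells without glutamine, at 9.9 and 13.85 against an array median of 14.76. In the 4 comparisons given for MYC the members' median was -0.44 and -0.17 with siBRAF, -0.19 in siCont cells without glutamine and -0.02 with vemurafenib. The part of MYC or of any other regulator in the members' values was not tested.

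**Figure D3:**
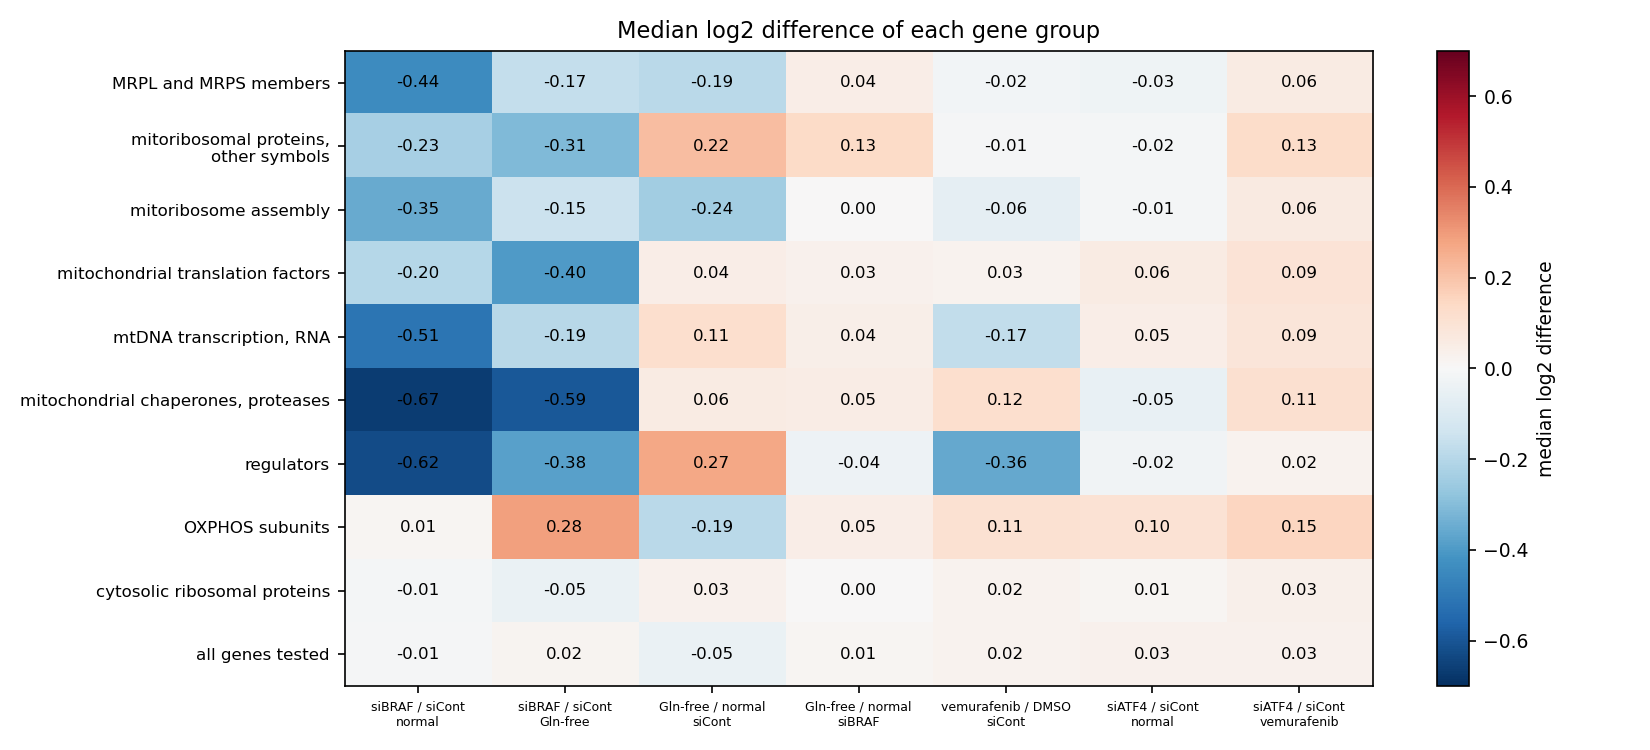
Median log2 difference between 2 single arrays (colour and printed value) of the members, of 8 related gene lists and of all genes tested (rows) in 7 comparisons (columns). With siBRAF in normal medium the members (-0.44) lie among the mitochondrial lists with negative medians, while respiratory chain subunits (0.01) and cytosolic ribosomal proteins (-0.01) lie near 0.

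The promoters of 64 of the 72 members matched the RefSeq table, and both strands of each window of 300 bases were searched for 5 motifs. The ETS motif CCGGAAGT was found for 11 members, or 17.2%, against 4.95% of 27305 genes and 7.03% of the 15384 that are also on the array. These were MRPL3, MRPL16, MRPL18, MRPL20, MRPL27, MRPL38, MRPL47, MRPL51, MRPL52, MRPS22 and MRPS34. The YY1 motif AAGATGGCG, added after the other 4 had been searched, was found for 10, or 15.6%, against 2.14% and 3.23%. Its members were MRPL22, MRPL32, MRPL36, MRPL38, MRPL42, MRPL46, MRPL50, MRPL52, MRPS10 and MRPS30. MRPL38 and MRPL52 hold both.

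The E-box CACGTG was found for 8 members, 12.5% against 8.77% of all genes and 10.9% of those on the array. The NRF1 motif GCGCATGCG was found for MRPL17 and MRPL22, 3.12% against 2.34% and 3.18%, and the ATF4 and CHOP element TGATGNAAT for MRPL55, 1.56% against 1.22% and 0.923%. In no member did matches to different motifs overlap. A match is a run of letters and was not tested as a binding site.

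With siBRAF in normal medium the 10 members with the YY1 motif were all below 0, with a median of -0.47, and 45 of the 54 without it were below 0, with a median of -0.38. The 11 members with the ETS motif had a median of -0.35 and the 53 without it -0.45. With siBRAF without glutamine the members with the YY1 motif had a median of -0.49, with 8 of 10 below 0. The 54 others were at -0.14, with 35 below 0. The ETS members were at 0.06 in that pair, with 5 of 11 below 0, and the 53 others at -0.20, with 38 below 0. In siCont cells without glutamine the members with the YY1 motif ranged from -0.93 to 0.82 with a median of -0.06, against -0.19 for the others. The ETS members were at -0.20 there, against -0.16. Members with a motif and members without it overlapped widely in each case.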

How the data were processed

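Total RNA of A375 cells was hybridised to 8 Affymetrix arrays, and the deposited values are linear intensities that the authors made with RMA, per the submitters' processing notes. The RMA version and any further scaling are not given in the sources used here. Of 54675 probe sets, 62 array controls were left out. GEO's platform annotation pairs 41091 with 1 symbol and 1801 with several, and only those with 1 symbol were named. Differences of log2(intensity + 1) between 2 arrays of 1 set were computed with Python 3.11.15, pandas 2.3.3 and NumPy 2.4.6. A gene was tested where its higher value reached its array's 50th percentile. No statistical test was run, since each condition has 1 array. The arithmetic was checked on simulated data.

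Members and lists were chosen with earlier results of these data known, as were the structural sites, the 1.5-fold line and the YY1 motif, which were added after values were seen. Named in each comparison were the 5 lowest and 5 highest members, every member at least 2-fold apart, members with opposing probe sets, and those with the largest mean over both siBRAF pairs. Depth does not apply to arrays, and their number limits the precision. The 6 alternatives were a constant of 16, no filter, the 75th percentile, the mean of all probe sets, no _s_at or _x_at probe sets, and quantile normalization.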

Additional observations from a re-analysis of the deposited data

Results flagged for a closer look

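The glutamine response had opposite signs in siCont and siBRAF cells for several results. Over the members, the median was -0.19 in siCont and 0.04 in siBRAF cells, and the median difference between the responses was 0.218, against 0.05 over all genes. With quantile normalization the siBRAF median was -0.00153 with 36 of 72 below 0, so that the medians no longer had opposite signs. The difference was 1.415 for MRPL44, 1.369 for MRPL23, 1.044 for MRPL41, 1.031 for MRPS34 and 1.028 for MRPL55. Each was lower without glutamine in siCont and slightly higher in siBRAF cells, by 0.04 to 0.14, so its sign in siBRAF cells is not secure. At least 2-fold higher in this difference were 5 of 72 members, a share near the 7.55% of all genes. None of these differences was tested, since each of the 4 conditions has 1 array. The value for MRPL23 turned its sign without the probe sets marked as shared. MRPL41, MRPL44 and MRPL55 have only such probe sets and could not be read without them.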

How the results depend on the processing

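Of 144 values for the members as a group under 6 alternatives, 129 stayed within the limits set (a median within 0.1, a count within 1.5 times) and 15 did not. Of 441 values for named members, 53 moved and 2 changed sign. With a constant of 16, members at least 2-fold lower with siBRAF without glutamine numbered 1 (from 2), and those higher in the difference of glutamine responses 3 (from 5). With the mean of all probe sets, 1 was lower without glutamine in siCont cells (from 2), 1 lower with siBRAF in normal medium (from 2), 1 higher with siBRAF without glutamine (from 2) and 2 higher in the difference of responses (from 5). Leaving out _s_at and _x_at probe sets, which can share sequence with other transcripts, kept 38 members (37 with siBRAF in normal medium). The medians then were -0.0149 without glutamine in siCont cells (from -0.19), -0.3013 with siBRAF without glutamine (from -0.17) and 0.0935 for the difference of responses (from 0.22). In those comparisons, the 2-fold counts were 0 lower in siCont cells, 1 higher with siBRAF and 1 higher for the difference, and siBRAF in normal medium gave 1 lower and 1 higher. MRPL41, MRPL44 and MRPL55 have only such probe sets and dropped out, so they could not be checked in this way. The 1 member higher in each siBRAF pair was MRPS14 by its second probe set, at 1.38 without glutamine and 1.01 in normal medium. MRPL23 then read 0.6943 without glutamine in siCont cells (from -1.27) and -0.837 for the difference of responses (from 1.37), since its remaining probe set is a dim one. Quantile normalization gave 1 member at least 2-fold lower with siBRAF without glutamine (from 2). The cause of the other changes was not tested. The lower median with siBRAF in normal medium stayed below 0 under all 6 alternatives. No paired analysis was possible because each condition has 1 array, and no replicate could be left out. Signal over background was not a limit for the members' chosen probe sets, all above the array median.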

Other observations

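Some probe sets of members that were not chosen to stand for their gene gave values unlike the one used. For MRPS14, a second probe set read 1.01 with siBRAF in normal medium, 1.38 without glutamine and 0.73 with vemurafenib, where the one used read 0.08, 0.02 and 0.07. For MRPS25, counted in the small subunit, one other probe set read 1.19 in siCont cells without glutamine, against 0.21 for the one used. For MRPS12, another probe set read -1.23 with siBRAF in normal medium, against -0.53. For MRPL30, another probe set read -1.27 with siBRAF without glutamine, against -0.84. Each is the reading of 1 probe set on 2 arrays.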
